A study of Danio rerio with 6 samples.

Results

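Microglia of csf1ra-/- zebrafish were compared with microglia of wild-type control fish, in 2 libraries each. These 4 of the 6 libraries of the series were chosen by the genotype in their labels and not by any measured value. The tested fish were homozygous for a mutant csf1ra allele. The controls were wild type. The remaining 2 libraries, from csf1ra-/-;b+/- fish that also carry a mutant csf1rb copy and are called compound mutants here, entered the fit so that all groups share an estimate of spread, and their values are given where they help to place a gene. Their labels conflict, since the description field names both receptors as mutant and the genotype field gives 1 mutant csf1rb copy, and here the genotype field was used. All fish were of the TLF x AB strain, aged 9 to 12 months, and carried an mpeg1-GFP reporter, and the cells are those of the brain sorted as GFP positive after trypsin digestion and a Percoll gradient. The mpeg1 promoter is active in macrophages generally, so the sort does not separate microglia from other brain macrophages or other mpeg1-positive leukocytes. The labels do not say how many fish each library holds, nor that replicates are from different fish, so a p-value here reflects the spread among these samples alone, and that spread may be technical. They do not state the nature of the mutant allele either.

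Colony-stimulating factor 1 receptor is a receptor tyrosine kinase of the macrophage lineage, and its ligands are colony-stimulating factor 1 and interleukin 34. Mammals have a single receptor gene, on which the survival and renewal of microglia depend. Zebrafish have the paralogous pair csf1ra and csf1rb. The gene csf1ra is best known from the panther pigment mutant, because yellow xanthophores need it, and it acts in macrophages as well. Microglia are the resident macrophages of the brain, which engulf dying cells and debris, carry abundant lysosomes, and present antigen.

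The csf1ra-/- libraries held 8028386 and 7874979 reads over the genes of the table, and the control libraries 4241988 and 7830510. Values below are in the deposited unit, called signal here, which is reads divided by an effective library size in units of 1000000 reads set by the authors. That effective size was 1.07 and 0.810 times the total reads in the csf1ra-/- libraries and 1.73 and 1.03 times in the control libraries, so control replicate 1 was both the shallowest library and the one scaled down most. The csf1ra-/- replicates correlated across genes at a Spearman rho of 0.730 and the control replicates at 0.667. Between the groups rho was 0.622 and 0.656 with control replicate 1, and 0.657 and 0.704 with control replicate 2. Such a value is taken across genes, which are not independent replicates. In bulk samples, fewer cells of a type and less RNA per cell cannot be told apart.

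Microglia and macrophage genes were detected in each csf1ra-/- and control library. Of 16 defining microglia and macrophage genes, 15 were in the table and each of these had reads in all 4 libraries. Detection alone does not settle the identity of the cells, since only 408 to 1741 of 21860 genes lacked a read in these libraries. The perforin-like macrophage gene mpeg1.1, whose promoter drives the reporter, stood at 644 and 618 units of signal in csf1ra-/- and 745 and 1080 in control. The apolipoprotein gene apoeb, a strong microglia marker in zebrafish, had 3438 and 2622 in csf1ra-/- and 4128 and 11447 in control. For spi1b, the Pu.1 transcription factor that specifies the myeloid lineage, the values were 502 and 517 in csf1ra-/- and 225 and 499 in control. The purinergic receptor gene p2ry12 was at 36.0 and 23.8 in csf1ra-/- and 32.6 and 26.3 in control. Both mpeg1.1 and apoeb lay lower in each csf1ra-/- library than in each control library, while the groups overlapped for p2ry12. The cathepsin B gene ctsba, at 525 and 505 in csf1ra-/-, was at 10.7 and 557 in control, so that control replicate 1 alone lay far below the other libraries.

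**Figure D1:**
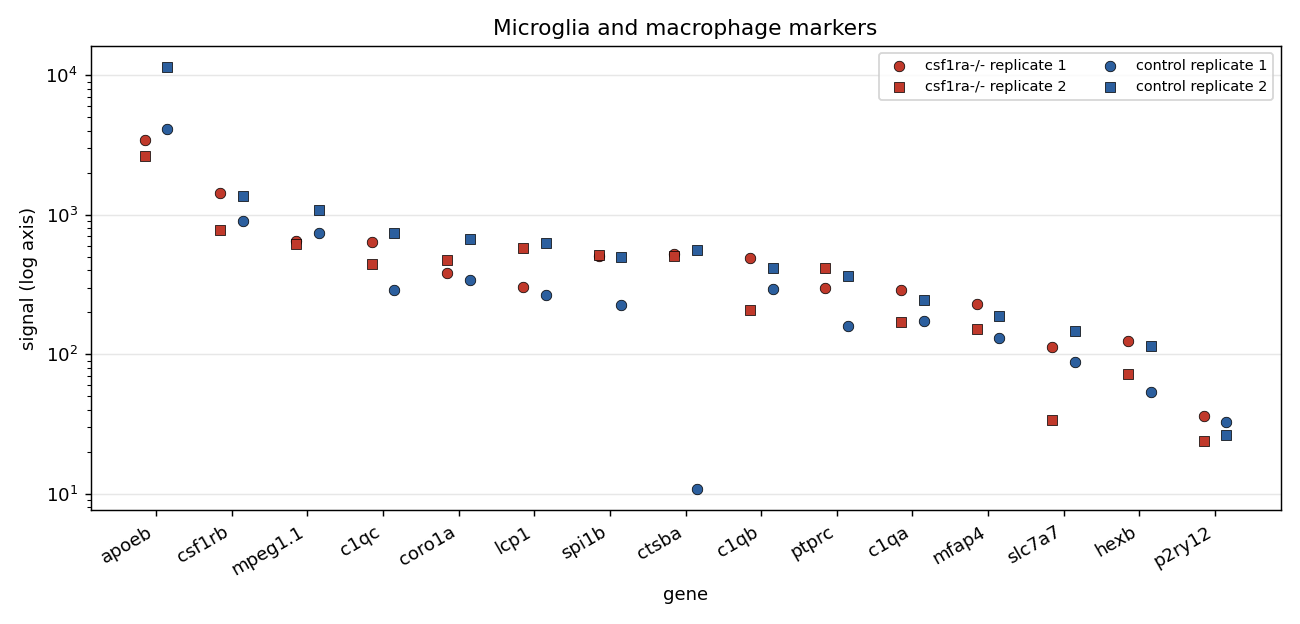
Signal (log axis) of the 15 defining microglia and macrophage genes found in the table, in each csf1ra-/- library (red, left) and each control library (blue, right). The groups do not overlap for spi1b (csf1ra-/- above) and for mpeg1.1 and apoeb (csf1ra-/- below), and ctsba shows the low value of 10.7 in control replicate 1.

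Transcripts of the targeted receptor remained present in csf1ra-/- microglia. The gene csf1ra (ENSDARG00000102986) stood at 42.6 and 24.3 units of signal in csf1ra-/- and 37.7 and 67.9 in control, and the groups overlapped. This gave a log2 difference of -0.64 with an SE of 0.69 (n = 2 per group, limma adjusted p = 0.803). A value per gene counts reads of any allele, so it does not check the genotype. Its paralogue csf1rb (ENSDARG00000053624) was far more abundant in the table's unit, at 1432 and 783 in csf1ra-/- and 901 and 1356 in control, a log2 difference of -0.06 ± 0.54 (limma adjusted p = 0.984). The controls lay between the csf1ra-/- libraries for csf1rb, so neither a gain nor a loss of the second receptor's transcripts was detectable. Signal is not scaled to transcript length, so this ratio between the paralogues is not a ratio of molecules.

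Of the ligand genes, il34 (ENSDARG00000091003) had 2.46 and 9.25 units of signal in csf1ra-/- and 1.9 and 14.8 in control. The gene csf1b (ENSDARG00000068263) had 0.117 and 1.73 in csf1ra-/-, against 0 and 1.48 in control. The groups overlapped for both ligand genes, and csf1a was not analysed here because no gene of the table carried its symbol. None of these 4 genes passed the test.

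No gene passed an adjusted p of 0.05 in limma among 21316 tested (percent called 0), and the smallest adjusted p was 0.0517. At an unadjusted p under 0.05, 2167 genes (10.2%) were found, 1144 of them higher in csf1ra-/- (5.37%) and 1023 lower (4.8%). By edgeR's quasi-likelihood test on the reads recovered from the table, 8 genes passed (0.0375%), 5 higher in csf1ra-/- (0.0235%) and 3 lower (0.0141%), and 1473 had an unadjusted p under 0.05 (6.91%). DESeq2 called 239 of the 15943 genes to which it gave an adjusted p (1.5%). In simulated counts with 200 changed genes, DESeq2 made 85 false calls, limma 2 and edgeR 1. DESeq2 calls were thus the least strictly controlled in that simulation. It was a single draw with a spread set by edgeR's trend, so the rate of false calls in the real libraries was not measured. The authors' deposited table has 164 genes at a false discovery rate under 0.05 (0.75%), 135 of them higher in csf1ra-/- and 29 lower. The 8 genes called by edgeR are described first, and "rose" and "fell" refer to that test. Log2 differences and their SE are those of limma on log2 of signal plus 1, also beside an edgeR adjusted p.

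Among the genes that rose in csf1ra-/- microglia were epdl1 and sftpba, which belong to families of secreted proteins. The ependymin-like gene epdl1 (ENSDARG00000076386), related to a glycoprotein of fish brain extracellular fluid, stood at 524 and 425 units of signal in csf1ra-/- and 27.7 and 35.4 in control. The log2 difference was 3.87 ± 0.48 (SE; edgeR adjusted p = 0.026, limma adjusted p = 0.0517). Surfactant protein Ba, sftpba (ENSDARG00000094708), belongs to a family known in mammals from the lining fluid of the lung, and had 132 and 291 in csf1ra-/- and 5.85 and 10.0 in control. Its log2 difference was 4.50 ± 0.58 (edgeR adjusted p = 0.0251, limma adjusted p = 0.0612). For both genes the groups were far apart, with the lowest csf1ra-/- value well above the highest control value.

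The other 3 genes that rose carry clone-style names in the table. The gene si:dkey-5n18.1 (ENSDARG00000043436), which the reference gene table names c1ql1 and which makes it a member of the secreted C1q-like family, stood at 219 and 120 in csf1ra-/- and 5.85 and 9.88 in control. Its log2 difference was 4.24 ± 0.59 (edgeR adjusted p = 0.0352). For si:ch211-226m16.2 (ENSDARG00000036785) the values were 62.0 and 117 in csf1ra-/- and 4.35 and 3.33 in control, a log2 difference of 4.16 ± 0.58 (edgeR adjusted p = 0.031). The gene si:dkey-286j15.3 (ENSDARG00000071036) had 36.8 and 33.6 in csf1ra-/- and 0.816 and 1.23 in control, a log2 difference of 4.17 ± 0.64 (edgeR adjusted p = 0.026). In all 3 the groups were far apart, and no role is annotated for the last pair in the sources used here.

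The 3 genes that fell were without a read in either csf1ra-/- library. CU929449.2 (ENSDARG00000102817) had 136 and 303 units of signal in control, zgc:171695 (ENSDARG00000100858) had 125 and 196, and si:dkey-18p12.4 (ENSDARG00000079703) had 79.4 and 135. Taking 3 reads over the csf1ra-/- group as the floor, they were at least 1093-fold, 798-fold and 534-fold lower in csf1ra-/-. The edgeR adjusted p was 0.00157, 0.00505 and 0.00583 in that order, and limma gave 0.0517 for each. No function is annotated for them in the sources used here.

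Compound mutants share the csf1ra genotype, and their values stood on the csf1ra-/- side for all 8 genes. In compound mutants epdl1 had 1266 and 1914 units of signal, sftpba 192 and 261, si:dkey-5n18.1 127 and 249, si:ch211-226m16.2 147 and 140, and si:dkey-286j15.3 116 and 111. Their values for the genes that fell were 0.0809 and 0.276 for CU929449.2, 1.29 and 5.62 for zgc:171695, and 0 in both libraries for si:dkey-18p12.4. The compound mutants are set against the same control libraries, so this is not a separate test of those controls.

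**Figure D2:**
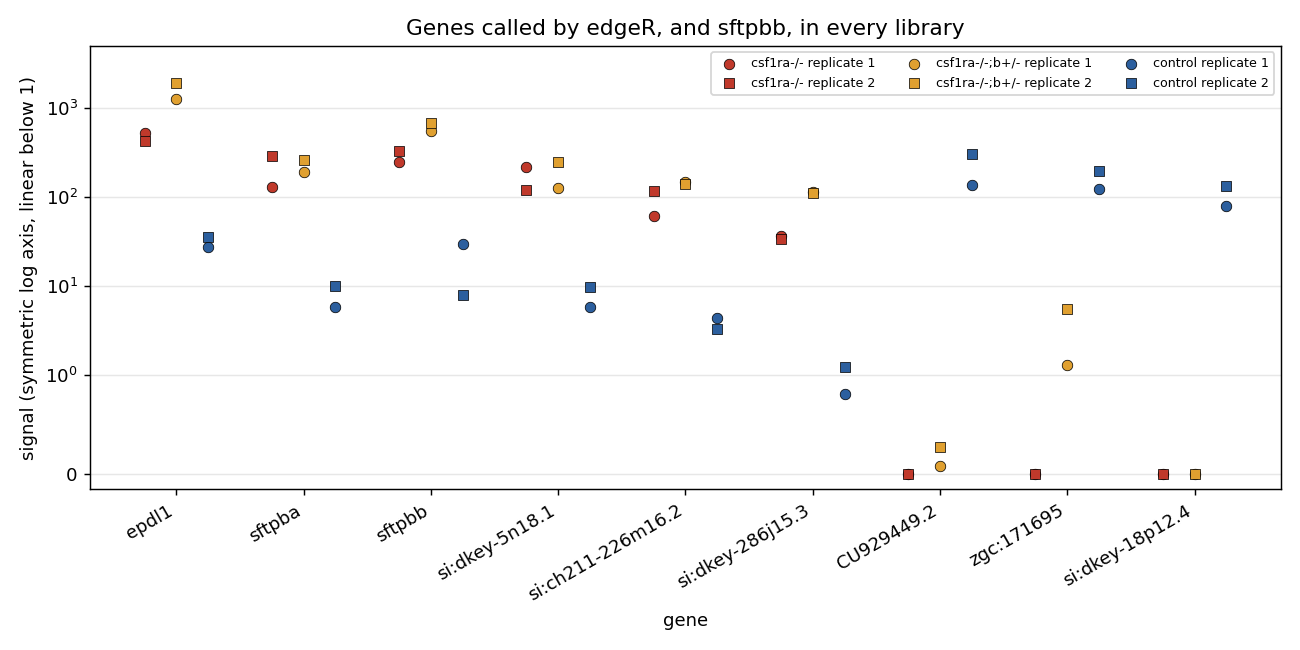
Signal in every library (symmetric log axis, linear below 1) of the 8 genes called by edgeR and of sftpbb, with csf1ra-/- in red at the left, compound mutants in orange and control in blue at the right. Points at 0 lie on top of each other; epdl1 shows 524 and 425 in csf1ra-/- and 27.7 and 35.4 in control, and CU929449.2 shows 0 in both csf1ra-/- libraries and 136 and 303 in control.

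The edgeR calls differed in how far they rested on single libraries. With each of the 4 libraries left out in turn, the number of genes edgeR called was 4 without control replicate 1, 3 without control replicate 2, 14 without csf1ra-/- replicate 1 and 8 without csf1ra-/- replicate 2. Of the original 8 genes, 3, 2, 6 and 6 were among them in that order. CU929449.2 and zgc:171695 were called each time, si:dkey-18p12.4 in 3 of the 4, and si:dkey-286j15.3 in 2. The genes epdl1, sftpba, si:dkey-5n18.1 and si:ch211-226m16.2 were each called in 1, and their values did not overlap between the groups. With the compound mutants left out of the fit, edgeR called 7 genes, 5 of them among the 8. The calls of epdl1 and si:ch211-226m16.2 (edgeR adjusted p = 0.0506 each) and of si:dkey-286j15.3 (edgeR adjusted p = 0.152) were lost in that fit.

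Relatives of epdl1 and sftpba were not all alike. The paralogue sftpbb (ENSDARG00000067566) stood at 252 and 329 in csf1ra-/- and 30.2 and 8.03 in control. Its log2 difference of 4.11 ± 0.62 did not pass in edgeR or limma (edgeR adjusted p = 0.145, limma adjusted p = 0.133). DESeq2 did call the paralogue (DESeq2 adjusted p = 2.0e-05), and so did the authors' deposited false discovery rate (3.8e-05). Reads of 50 bases from such paralogues could have been split between them if the authors' counting allowed it. Ependymin itself, epd (ENSDARG00000103498), had 3460 and 644 in csf1ra-/- and 79.4 and 1118 in control. The groups overlapped for epd, because control replicate 2 lay above csf1ra-/- replicate 2. The ependymin-related gene epdr1 had no read in csf1ra-/- and 3.54 and 0.123 units in control.

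Several genes differed widely between the groups without passing limma or edgeR. Their values are given here because their log2 differences were among the 12 largest in each direction within a set of 1487 genes. Those had an unadjusted limma p under 0.05, no overlap, at least 20 reads on average in the higher group and a symbol that is not a clone name, so genes with clone names are left out. Values chosen in this way are the extremes of that set, and 38.8% of all tested genes had no overlap between the groups, 18.6% with csf1ra-/- above and 20.2% with csf1ra-/- below. In csf1ra-/- the cellular retinol-binding protein gene rbp2a had 33.9 and 52.2 against 3.81 and 0 in control. The opioid growth factor receptor-like gene ogfrl1 had 55.5 and 116 in csf1ra-/- against 3.13 and 3.58 in control. The values of syngr1b, a synaptogyrin of vesicle membranes, were 77.4 and 244 in csf1ra-/- and 7.89 and 6.79 in control. For rbm38, an RNA-binding protein gene, they were 90.7 and 181 in csf1ra-/- and 7.89 and 6.30 in control. The transcriptional coactivator subunit gene ascc1 reached 1835 in csf1ra-/- replicate 2 but 130 in replicate 1, against 15.5 and 37.0 in control. The size of its difference thus rests on replicate 2. At 0.05, both DESeq2 and the authors' deposited rates did call rbp2a, ogfrl1, syngr1b, rbm38 and ascc1. Of the lower genes named below, neither called mhc1uba, inhbb, clic5b or caspb.

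That list held the genes of the mitochondrial proteins mrpl51, a subunit of the mitochondrial ribosome, and dnlz, a partner of the mitochondrial Hsp70 chaperone. For mrpl51 the values were 19.1 and 23.2 in csf1ra-/- and 0.544 and 0 in control. For dnlz they were 24.1 and 19.9 in csf1ra-/- and 0.816 and 0 in control. The remaining genes higher in csf1ra-/- were phlda2, soul5, ppa1b, and the sftpba and sftpbb pair already described.

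Lower in csf1ra-/- was the MHC class I heavy chain gene mhc1uba (ENSDARG00000075963), with 5.85 and 290 units of signal in csf1ra-/- and 1532 and 2071 in control. Its log2 difference was -5.32 ± 1.3 (edgeR adjusted p = 0.556, limma adjusted p = 0.359). Both csf1ra-/- libraries lay far below control and also far from each other. Class I genes have closely similar copies, so how reads were divided among them is uncertain. The adaptor gene sh3d19 had 2.69 and 0.157 in csf1ra-/- and 48.4 and 89.5 in control. For capn8, a calpain protease gene, the values were 1.05 and 0.157 in csf1ra-/- and 29.2 and 54.0 in control. The activin subunit gene inhbb had 9.12 and 0.157 in csf1ra-/- and 56.0 and 81.9 in control.

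The lysosomal galactosylceramidase gene galca, whose product breaks down a myelin lipid, had 0.585 and 0.314 in csf1ra-/- and 16.6 and 17.2 in control. The caspase gene caspb, an inflammatory caspase of zebrafish inflammasomes, had 28.2 and 0.470 in csf1ra-/- and 75.5 and 84.0 in control. ZFOS-741A10.4 had no read in csf1ra-/- against 12.5 and 14.3 in control, which makes it at least 66.8-fold lower. The rest of the lower genes were DEPDC1B, clic5b, kpna7, CYP27A1 (1 of many) and SERINC3.

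The difference between the groups followed the level of a gene's signal, and it did so beside a like difference between the 2 control libraries. Among 4242 genes with a mean signal under 2 over the 4 libraries, the median log2 difference of csf1ra-/- from control was -0.25. It was -0.29 for 9434 genes at 2 to 10, 0.30 for 5738 genes at 10 to 50, 0.52 for 1560 genes at 50 to 250, and 0.78 for 342 genes at 250 or more. In the same order of levels, control replicate 2 differed from control replicate 1 by medians of -0.43, -0.38, 0.37, 0.73 and 0.99. Within csf1ra-/-, replicate 2 differed from replicate 1 by medians of -0.27, -0.16, 0.15, 0.10 and 0.27. Set against control replicate 2 alone, csf1ra-/- replicate 1 gave 0.02, -0.02, 0.02, 0.09 and 0.00, and csf1ra-/- replicate 2 gave -0.17, -0.17, 0.17, 0.20 and 0.40. Control replicate 1 thus moved with this pattern, with lower values of abundant genes than control replicate 2. The median over all genes tested was -0.03, and -0.45 with libraries scaled to total reads. On that scale 11 of 34 list medians changed sign, but relative to the median of all genes only that of the vacuolar proton pump did, which lay at 0.01. Lists are therefore described below by their median and, for most, by their median relative to tested genes of the same signal level, here called the level-matched median. The levels are the 5 classes above, and each class includes the list's own members. For lists of abundant genes, such as the ribosomal proteins, the genes compared with are therefore not independent of the list. In order of level, 1.23%, 3.38%, 8.42%, 13.9% and 21.3% of tested genes were higher in csf1ra-/- at an unadjusted p under 0.05. In the same order, 6.81%, 6.16%, 2.06%, 1.73% and 2.34% were lower. Of 34 list medians, 14 changed sign with 1 of the 4 libraries left out, and the value without that library is given beside each median printed.

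**Figure D3:**
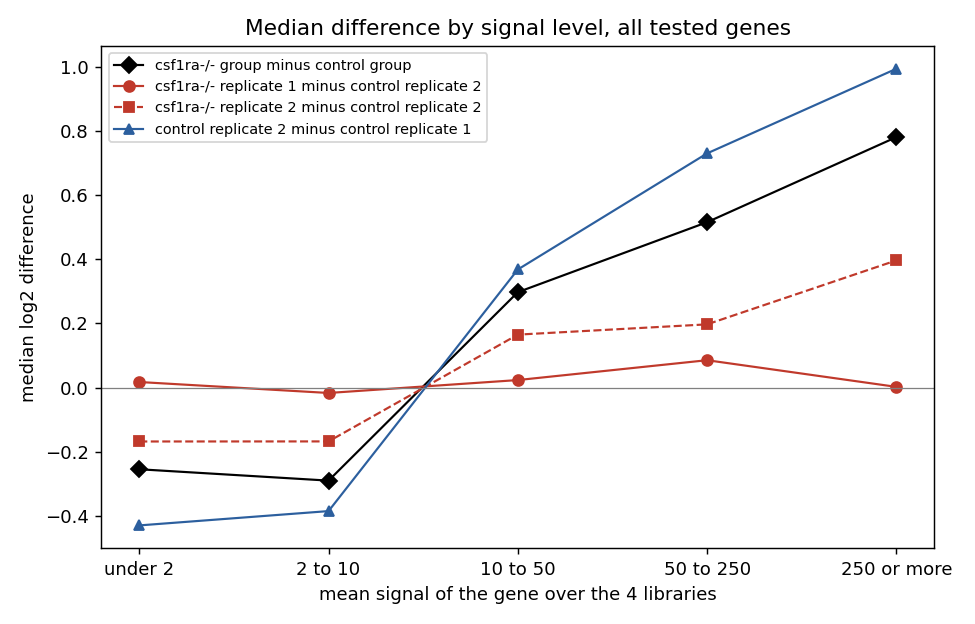
Median log2 difference over all tested genes (vertical axis) in 5 classes of mean signal (horizontal axis), for csf1ra-/- minus control as groups (black), each csf1ra-/- library minus control replicate 2 (red), and control replicate 2 minus control replicate 1 (blue). The group line runs from -0.25 to 0.78 and lies near the line between the 2 controls, which runs from -0.43 to 0.99, while csf1ra-/- replicate 1 minus control replicate 2 stays between -0.02 and 0.09.

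Cytosolic ribosomal protein genes had the highest median of the cell-process lists. Of 87 members in the table, all 87 were tested, 85 had a log2 difference above 0, where 48.8% of all genes did, and 58 lay higher in both csf1ra-/- libraries than in both control libraries, with 0 lower in both. At an unadjusted p under 0.05 there were 41 higher and 0 lower, and 0 passed either limma or edgeR. The 58 were 66.7% of the list and the 41 were 47.1%. Of all tested genes with a mean signal of 250 or more, which include members of the list, the shares were 41.8% and 21.3%. The median log2 difference of the list was 1.24, with quartiles of 1.09 and 1.42, and the level-matched median was 0.48. In csf1ra-/- these genes took 9.92% and 14.6% of all reads, against 6.10% and 8.08% in control. RPL41, a very small protein of the large subunit, had 5104 and 7554 units of signal in csf1ra-/- and 1563 and 2687 in control. The small-subunit gene rps20 had 2435 and 4500 in csf1ra-/- and 757 and 1798 in control. Both genes had their lowest csf1ra-/- value above their highest control value.

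By pairs of libraries the ribosomal median was 1.36 for csf1ra-/- replicate 1 against control replicate 1 and 0.17 against control replicate 2. It was 2.27 for csf1ra-/- replicate 2 against control replicate 1 and 1.16 against control replicate 2. Control replicate 2 differed from control replicate 1 by 1.17, close to the group median. Within csf1ra-/-, replicate 2 differed from replicate 1 by 0.98. Without control replicate 1 the group median was 0.67, and without csf1ra-/- replicate 2 it was 0.74. The proteins of the 2 ribosomal subunits make up the machinery of protein synthesis, and the translation factors that act on it showed a smaller difference. Of 76 such factors, 60 were above 0, and 13 were higher and 1 lower at an unadjusted p under 0.05. The 13 were 17.1% of the list, against 13.9% of all tested genes with a mean signal of 50 to 250. The median of the list was 0.69, with a level-matched median of 0.27 and a median of 0.34 without control replicate 1. Nascent-chain factor btf3 had 814 and 1409 in csf1ra-/- and 265 and 502 in control. The elongation factor gene eef1a1l1 had 3528 and 7180 in csf1ra-/- and 1915 and 3459 in control.

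Genes of mitochondria gave medians that were largest against control replicate 1. Of 86 nuclear-encoded respiratory chain genes, 80 were above 0, 37 lay above control in both libraries and 2 below, 13 were higher and 0 lower at an unadjusted p under 0.05, and the median was 0.73, with a level-matched median of 0.31. The 37 were 43.0% of the list and the 13 were 15.1%, against 40.4% and 13.9% of all tested genes with a mean signal of 50 to 250. The median of the list was 0.12 without control replicate 1, and the controls differed from each other by 1.13. The small cytochrome c oxidase subunit genes held the smallest p-values of the list. For cox7a1 the values were 35.9 and 30.4 in csf1ra-/- and 2.58 and 1.61 in control. For cox8b they were 50.2 and 65.6 in csf1ra-/- and 10.2 and 4.2 in control. Unlike the list's median, these differences were as clear against control replicate 2 as against replicate 1. The authors' deposited false discovery rates called both genes (0.0057 for cox7a1 and 0.033 for cox8b).

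The 13 protein genes of the mitochondrial genome had a median of 0.70, a level-matched median of 0.01, and -0.04 without control replicate 1. Cytochrome oxidase subunit gene mt-co2 stood at 14101 and 11420 in csf1ra-/- and 4166 and 9178 in control, and mt-co1 at 7988 and 6025 in csf1ra-/- and 1978 and 8166 in control. Of 76 mitochondrial ribosomal protein genes, 8 were higher and 0 lower at an unadjusted p under 0.05. The 8 were 10.5% of the list, against 8.42% of all tested genes with a mean signal of 10 to 50. Their median was 0.67, the level-matched median 0.40, and the median without control replicate 1 was 0.07.

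**Figure D4:**
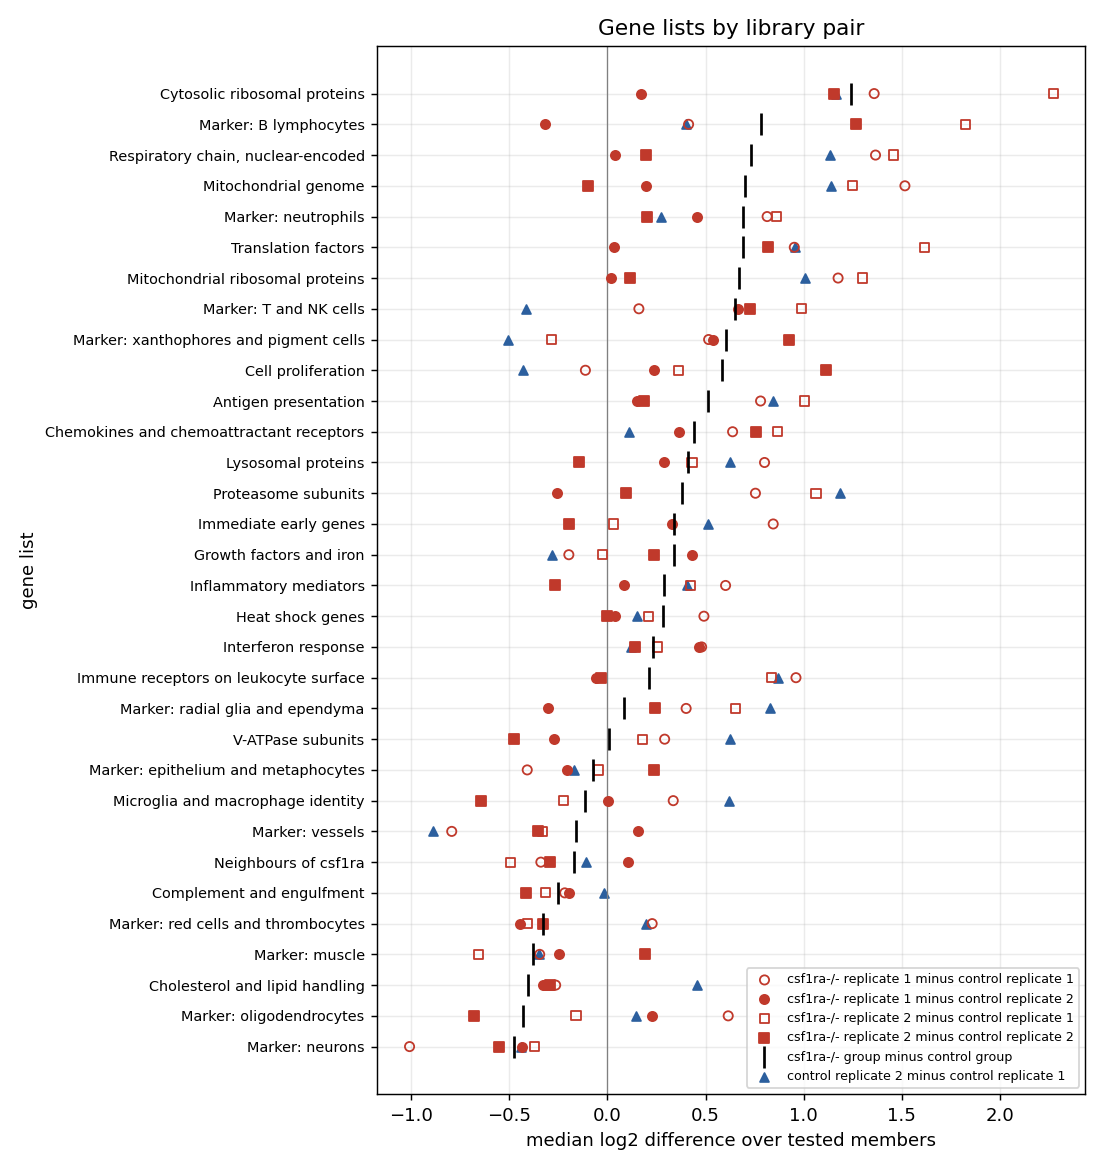
Median log2 difference over the tested members of 32 gene lists (horizontal axis), for csf1ra-/- minus control as groups (black bar), for each csf1ra-/- library minus each control library (red), and for control replicate 2 minus control replicate 1 (blue). The cytosolic ribosomal proteins have the highest group median, 1.24, the neurons' markers the lowest, -0.48, and open symbols (against control replicate 1) lie to the right of filled ones of the same shape for most lists of abundant genes.

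Genes of microglia and macrophage identity were divided in direction. Of 45 tested members, 21 were above 0, and 4 were higher and 3 lower at an unadjusted p under 0.05. The 4 were 8.89% of the list, against 13.9% of all tested genes with a mean signal of 50 to 250. In that class 1.73% were lower. Of the list, 9 (20.0%) lay below both controls in both csf1ra-/- libraries and 8 (17.8%) above. The shares in that class were 5.96% below and 40.4% above. The median was -0.11, with a level-matched median of -0.75. The median was 0.25 without csf1ra-/- replicate 2, 0.16 without control replicate 2 and -0.43 without control replicate 1. Their share of all reads was 2.46% and 1.24% in csf1ra-/- and 3.66% and 4.32% in control. In summed signal the groups overlapped, at 23138 and 15271 in csf1ra-/- and 21142 and 41761 in control. The 4 members with the highest mean signal were apoc1, apoeb, lgals3bpb and csf1rb. The apolipoprotein C gene apoc1 had 6791 and 3381 in csf1ra-/- and 6630 and 13984 in control. For slco2b1, an organic anion transporter gene, the values were 460 and 146 in csf1ra-/- and 585 and 1192 in control. The galectin-binding gene lgals3bpb had 1716 and 730 in csf1ra-/- and 2099 and 2262 in control. Both csf1ra-/- libraries were below both controls for slco2b1 and lgals3bpb. Of the csf1ra-/- and control libraries, csf1ra-/- replicate 2 was the lowest for apoc1, slco2b1 and lgals3bpb.

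Other members of the list went the other way. The signalling adaptor tyrobp had 17.8 and 55.2 in csf1ra-/- and 5.58 and 9.39 in control. Values of aif1l, related to the microglial protein Iba1, were 241 and 139 in csf1ra-/- and 33.5 and 93.7 in control. For irf8, a transcription factor needed for zebrafish microglia to form, they were 783 and 1308 in csf1ra-/- and 354 and 544 in control. Reads of apoea, the less abundant apolipoprotein E paralogue, were absent in csf1ra-/-, against 3.81 and 1.73 in control, at least 13.8-fold lower in csf1ra-/-.

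Complement and engulfment genes had a median of -0.25 and a level-matched median of -0.48 over 38 members, 16 of them above 0. At an unadjusted p under 0.05, 5 were higher (13.2%) and 1 lower. Of all tested genes, 3.38% were higher at a mean signal of 2 to 10 and 8.42% at 10 to 50. The properdin-like gene cfp, named for a positive regulator of the alternative complement pathway, had 165 and 101 in csf1ra-/- and 349 and 445 in control. The phosphatidylserine receptor gene havcr1, of the Tim family, had 609 and 253 in csf1ra-/- and 659 and 1223 in control. The bridging molecule gene mfge8b had 13.2 and 101 in csf1ra-/- and 3.54 and 3.21 in control. The C1q chain gene c1qc overlapped, with 639 and 443 in csf1ra-/- and 289 and 734 in control. The lysosomal list had a median of 0.41 over 49 members and a level-matched median of -0.11. At an unadjusted p under 0.05, 3 were higher and 1 lower. The 3 were 6.12% of the list, against 13.9% of all tested genes with a mean signal of 50 to 250. Cathepsin B paralogue ctsbb had 252 and 824 in csf1ra-/- and 81.5 and 54.7 in control, and progranulin-type gene grn1 had 152 and 107 in csf1ra-/- and 31.1 and 25.6 in control. At 0.05, both DESeq2 and the authors' deposited rates called ctsbb, grn1 and mfge8b, and neither called cfp, havcr1 or c1qc. Without control replicate 1 the lysosomal median was 0.12. The 25 tested subunits of the vacuolar proton pump had a median of 0.01 and a level-matched median of -0.55, with 0 higher and 1 lower, and a median of -0.28 without control replicate 1. Of all tested genes with a mean signal of 50 to 250, 13.9% were higher and 1.73% lower.

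Immune signalling genes were higher and lower within the same families. Of 43 tested chemokines and chemoattractant receptors, 12 (27.9%) were higher and 3 lower at an unadjusted p under 0.05. Of all tested genes, 5.37% were higher and 4.8% lower, and 3.38% were higher at a mean signal of 2 to 10. The median of the list was 0.44, or 0.29 without csf1ra-/- replicate 2, with a level-matched median of 0.60. The chemokine gene ccl33.3 had 152 and 488 in csf1ra-/- and 34 and 49.3 in control. The neighbouring family members ccl35.1 and ccl35.2 were alike in direction, with 505 and 440 in csf1ra-/- and 192 and 124 in control for ccl35.1, and 279 and 245 in csf1ra-/- and 78.5 and 56.6 in control for ccl35.2. Reads of ccl34b.8 were found in csf1ra-/-, at 16 and 14, and in neither control, at least 77.2-fold higher in csf1ra-/-. The most abundant chemokine gene, ccl34b.1, lay the other way, with 4776 and 1823 in csf1ra-/- and 5623 and 9244 in control. Its relatives share sequence, so how reads were divided among them is uncertain. At 0.05, both DESeq2 and the authors' deposited rates called ccl34b.8 and ccl33.3, and neither called ccl35.1, ccl35.2 or ccl34b.1.

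Toll-like receptor gene tlr3, whose product senses double-stranded RNA, had 131 and 214 in csf1ra-/- and 22.6 and 26.9 in control, a log2 difference of 2.71 ± 0.52 (limma adjusted p = 0.32). The adaptor gene myd88, which most other Toll-like receptors use, had 52.3 and 47.7 in csf1ra-/- and 8.30 and 8.15 in control. In both genes the replicates of each group were close and the groups well apart, without passing limma or edgeR. DESeq2, which made 85 false calls in the simulated counts, did call both (DESeq2 adjusted p = 0.0010 for tlr3 and 0.0071 for myd88). The authors' deposited false discovery rates called both as well (0.0018 for tlr3 and 0.011 for myd88). The interferon-response list as a whole had a median of 0.23 over 50 tested members and a level-matched median of 0.15. At an unadjusted p under 0.05, 5 were higher (10.0%) and 1 lower. Of all tested genes with a mean signal of 10 to 50, 8.42% were higher. On the interferon list, stat1b, a transcription factor of interferon signalling, had 108 and 78.9 in csf1ra-/- and 28.8 and 26.3 in control. Inflammatory mediators had a median of 0.29 over 63 members, a level-matched median of 0.21, and a median of -0.09 without control replicate 1. At an unadjusted p under 0.05, 8 were higher and 3 lower. The 8 were 12.7% of the list, against the same 8.42%.

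Antigen presentation genes had a median of 0.51 over 37 members, 0.15 without control replicate 1, and a level-matched median of 0.06. At an unadjusted p under 0.05, 4 were higher and 2 lower. The 4 were 10.8% of the list, against 13.9% of all tested genes with a mean signal of 50 to 250. Among class II genes, cd74a, the invariant chain and a major transcript of these libraries, had 17930 and 15911 in csf1ra-/- and 14409 and 28764 in control, with overlap. The class II beta chain gene mhc2dab had 1218 and 662 in csf1ra-/- and 1702 and 3750 in control. The proteasome activator psme1 had 85.0 and 149 in csf1ra-/- and 29.2 and 40.6 in control. The 54 tested proteasome subunits had a median of 0.38 and a level-matched median of 0.07, with 1 higher and 0 lower, and a median of -0.13 without control replicate 1. The 1 was 1.85% of the list, against 8.42% of all tested genes with a mean signal of 10 to 50. Of 33 surface receptors and signalling partners of leukocytes, 5 were higher and 0 lower at an unadjusted p under 0.05. The 5 were 15.2% of the list, against 13.9% of all tested genes with a mean signal of 50 to 250, and the level-matched median of the list was 0.00. The tetraspanin gene cd82a had 110 and 53.6 in csf1ra-/- and 5.30 and 15.7 in control. The adaptor gene hcst had 41.6 and 67.0 in csf1ra-/- and 4.49 and 11.5 in control. The authors' deposited false discovery rates called both genes (0.0086 for cd82a and 0.033 for hcst).

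Iron genes were among those with the smallest p-values in the list of growth factors and iron. Ferritin heavy chain gene fth1a had 424 and 946 in csf1ra-/- and 101 and 201 in control. Transferrin receptor gene tfr1b had 102 and 213 in csf1ra-/- and 32.2 and 49.3 in control. Of the growth factors, pdgfba, a platelet-derived growth factor chain, had 217 and 106 in csf1ra-/- and 353 and 531 in control. This list had 5 higher and 2 lower of 33 at an unadjusted p under 0.05. The 5 were 15.2% of the list, against 3.38% of all tested genes with a mean signal of 2 to 10. Cholesterol and lipid handling genes had a median of -0.40 over 55 members, -0.13 without control replicate 1, and a level-matched median of -0.29. Of these members, 4 were higher (7.27%) and 4 lower at an unadjusted p under 0.05. Among all tested genes with a mean signal of 2 to 10, 3.38% were higher and 6.16% lower. The share of reads of the lipid list was 1.31% and 0.612% in csf1ra-/- and 2.1% and 2.86% in control, mostly from apoeb and apoc1. In summed signal the groups overlapped, at 12325 and 7564 in csf1ra-/- and 12135 and 27632 in control. Proliferation genes had a median of 0.58 over 55 members, a level-matched median of 0.59, and a median of 0.08 without control replicate 2. At an unadjusted p under 0.05, 5 were higher and 1 lower. The 5 were 9.09% of the list, against 3.38% of all tested genes with a mean signal of 2 to 10. The ribonucleotide reductase gene rrm2 had 8.54 and 73.6 in csf1ra-/- and 6.39 and 0.864 in control, and so was high only in csf1ra-/- replicate 2.

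Genes that respond to handling of cells were examined for the state of the cells. Immediate early genes had a median of 0.34 and a level-matched median of -0.18 over 47 members. At an unadjusted p under 0.05, 2 were higher (4.26%) and 0 lower. Of all tested genes with a mean signal of 10 to 50, 8.42% were higher. The median of the list was -0.17 without csf1ra-/- replicate 1 and 0.67 without csf1ra-/- replicate 2. The transcription factor egr1 had 1211 and 362 in csf1ra-/- and 774 and 647 in control, with overlap. Heat shock genes had a median of 0.28 over 43 members, with 3 higher (6.98%) and 0 lower. Of all tested genes with a mean signal of 2 to 10, 3.38% were higher. The level-matched median of the heat shock list was 0.22, and its median was -0.06 without csf1ra-/- replicate 1. The chaperone gene hsp90ab1 had 1967 and 4578 in csf1ra-/- and 914 and 1490 in control.

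Markers of other cells were present in every library, and their part in the results above was not tested. B lymphocyte markers had a median of 0.78 over 22 members, 0.29 without csf1ra-/- replicate 2 and 1.77 without csf1ra-/- replicate 1. The level-matched median was 0.85. At an unadjusted p under 0.05, 3 were higher (13.6%) and 0 lower. Of all tested genes with a mean signal of 10 to 50, 8.42% were higher. The summed signal of the list was 1432 and 1631 in csf1ra-/- and 695 and 1550 in control. Some members were high in 1 library. The early B cell factor gene ebf1a had 7.48 and 112 in csf1ra-/- and 5.58 and 7.66 in control, the recombinase gene rag1 0.702 and 31.4 in csf1ra-/- and 2.86 and 1.85 in control, and the receptor component cd79a 6.66 and 57.7 in csf1ra-/- and 5.58 and 12.1 in control. These 3 genes, named after their values were seen, were highest in csf1ra-/- replicate 2. The B lymphocyte list as a whole took 0.153% and 0.132% of reads in csf1ra-/- and 0.120% and 0.160% in control. Its median signal was 7.37 and 24.8 in csf1ra-/- and 5.10 and 7.84 in control. Replicate 2 of csf1ra-/- was also the library with the highest ribosomal share, and a link was not tested. The immunoglobulin gene ighv1-4 was higher in both csf1ra-/- libraries, at 158 and 316, against 52.9 and 22.1 in control. The authors' deposited false discovery rate called it (0.026). Among B cell markers, irf4b, rag2 and ebf1b had no read in csf1ra-/- replicate 1. No marker of the list was at 0 in csf1ra-/- replicate 2 or in either control library.

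T and natural killer cell markers had a median of 0.65 over 25 members, 0.30 without csf1ra-/- replicate 2. Their level-matched median was 0.77. At an unadjusted p under 0.05, 4 were higher (16%) and 2 lower. Of all tested genes with a mean signal of 2 to 10, 3.38% were higher and 6.16% lower. The summed signal of the T and natural killer cell list was 519 and 712 in csf1ra-/- and 257 and 467 in control. The interleukin 7 receptor gene il7r had 28.1 and 86.9 in csf1ra-/- and 3.81 and 6.67 in control, whereas zap70, a kinase of T cell receptor signalling, had 0.234 and 0.157 in csf1ra-/- and 6.12 and 9.76 in control. The natural killer lysin gene nkl.2 had no read in csf1ra-/-, gzmk none in csf1ra-/- replicate 2, and lck, itk and runx3 none in control replicate 2. Neutrophil markers had a median of 0.69 over 15 members, 0.31 without csf1ra-/- replicate 2, and a level-matched median of 0.85. At an unadjusted p under 0.05, 2 were higher and 0 lower. The 2 were 13.3% of the list, against the same 3.38%. The summed signal of the list was 601 and 533 in csf1ra-/- and 252 and 497 in control. The marker cfl1l was at 0 in csf1ra-/- replicate 1 and illr4 at 0 in control replicate 1.

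Neuronal markers had the lowest median of the lists, -0.48 over 43 members, with 2 higher (4.65%) and 4 lower at an unadjusted p under 0.05. Of these 43, 10 (23.3%) lay below both controls in both csf1ra-/- libraries and 3 (6.98%) above. Among all tested genes with a mean signal of 2 to 10, 25.2% lay below and 13.2% above. At that p, 3.38% of this class were higher and 6.16% lower. The level-matched median of the neuronal list was -0.27. Its share of reads was 0.0263% and 0.0262% in csf1ra-/- and 0.0632% and 0.0707% in control. Summed signal was 247 and 324 in csf1ra-/- and 364 and 683 in control, of which the neuroplastin gene nptna alone had 37.4 and 75.1 in csf1ra-/- and 114 and 386 in control. The vesicular glutamate transporter gene slc17a7a had no read in csf1ra-/- and 1.22 and 3.46 in control. Markers at 0 numbered 3 and 7 in csf1ra-/- and 0 and 1 in control.

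Markers of glia and vessels lay on both sides. Oligodendrocyte markers had a median of -0.43 over 26 members, 0.16 without csf1ra-/- replicate 2 and -0.07 without control replicate 2, with 2 higher and 1 lower, and a summed signal of 629 and 689 in csf1ra-/- and 462 and 607 in control. The myelin basic protein paralogues stood on opposite sides, with 94.2 and 91.0 in csf1ra-/- and 23.3 and 36.7 in control for mbpb, and 94.8 and 96.6 in csf1ra-/- and 176 and 195 in control for mbpa. Radial glia and ependyma had a median of 0.08 over 32 members, with 1 higher and 0 lower, and a median of -0.09 without control replicate 1. Their summed signal was 4672 and 1693 in csf1ra-/- and 1067 and 4008 in control, most of it from epd and the glutamine synthetase gene glula. Vessel markers had a median of -0.16 over 34 members, -0.64 without control replicate 2, with 1 higher and 2 lower, and a summed signal of 674 and 686 in csf1ra-/- and 472 and 914 in control. Epithelial and metaphocyte markers had a median of -0.08 over 28 members, 0.14 without csf1ra-/- replicate 1, with 2 higher and 1 lower. The simple-epithelium keratin krt8 was the most abundant of them, at 151 and 160 in csf1ra-/- and 34 and 44.2 in control. Members higher at an unadjusted p under 0.05 were 7.69% of the oligodendrocyte list and 3.1% of the radial glia list. For vessel and epithelial markers the shares were 2.94% and 7.14%. Of all tested genes with a mean signal of 2 to 10, 3.38% were higher and 6.16% lower.

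Pigment cells, for which csf1ra is best known, had markers of low signal. Their markers summed to 56.1 and 153 units in csf1ra-/- and 60.5 and 36.7 in control, with 1 higher and 1 lower of 13 tested. Muscle markers summed to 105 and 138 in csf1ra-/- and 230 and 140 in control, with 0 higher and 1 lower of 19 tested. Red cell and thrombocyte markers summed to 163 and 171 in csf1ra-/- and 141 and 213 in control, with 0 higher and 0 lower of 19. The higher pigment marker was 7.69% of its list. Of all tested genes with a mean signal of 2 to 10, 3.38% were higher and 6.16% lower at an unadjusted p under 0.05.

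**Figure D5:**
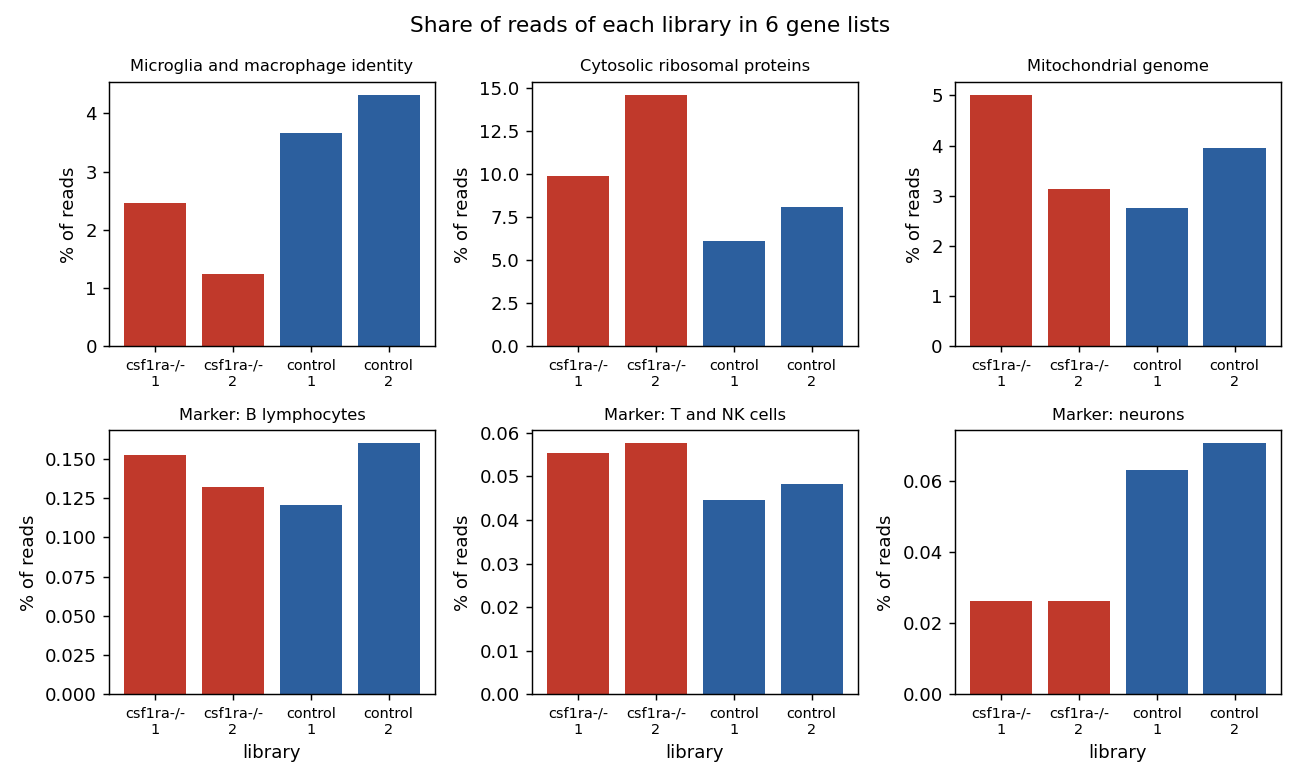
Percent of the reads of each library (bars from 0, vertical axis) that fell in 6 gene lists, with csf1ra-/- libraries in red at the left and control libraries in blue at the right. The microglia identity list takes 2.46% and 1.24% in csf1ra-/- and 3.66% and 4.32% in control, and the ribosomal proteins 9.92% and 14.6% in csf1ra-/- and 6.10% and 8.08% in control.

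Genes that lie next to csf1ra in the genome were read as a group, since a mutation is inherited with its surroundings. Of the 20 nearest genes on each side that could be matched to the table, 39 were tested. In both libraries 12 (30.8%) lay below control and 4 (10.3%) above. The shares were 20.2% and 18.6% of all tested genes, and 25.2% and 13.2% of those with a mean signal of 2 to 10. Of the neighbours, 0 were higher and 6 lower at an unadjusted p under 0.05. The median of the neighbours was -0.17, against -0.03 over all genes, and none passed the adjusted test. The platelet-derived growth factor receptor gene PDGFRB, which lies directly beside csf1ra and marks mural cells, had 0.117 and 0.157 units of signal in csf1ra-/- and 5.85 and 2.59 in control. Protocadherin genes pcdh2g17 and pcdh2ac, of the clustered cell-adhesion family, were at 0 and 0 in csf1ra-/- against 1.77 and 6.55 in control, and at 3.51 and 0 in csf1ra-/- against 12.5 and 13.1 in control. All 6 of the lower genes had a mean signal between 2 and 10, a class in which 6.16% of all genes were lower at that p. The abundant neighbours cd74a and tubb4b overlapped between the groups, with 352 and 446 in csf1ra-/- and 145 and 362 in control for the tubulin gene tubb4b.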

How the data were processed

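RNA of GFP-positive brain cells was amplified with a low-input cDNA kit and sequenced as single reads of 50 bases, per the labels' protocols. Per the submitters' processing notes, HISAT2, edgeR and the GRCz10 assembly were used; their versions, the annotation and any strand setting are not given in the sources. The authors deposited 1 table of 21860 genes, whose signal values, headed CPM, are per the file headers and the values themselves reads divided by an effective library size (in 1000000 reads). Every value was a whole multiple of its library's smallest value within 0.001. With that smallest value taken as 1 read, 100% of the values could be turned into whole reads. Every gene had at least 1 read per 1000000 in 2 or more libraries, so rarer genes were left out before deposition. The log2 fold changes and the FDR p-value columns of csf1ra-/- against wild type are the authors' own, as deposited. Another 23 columns were not used.

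Differences were tested with limma 3.58.1 (R 4.3.3, trend and robust) on log2 of signal plus 1, two-sided, on the 21316 genes reaching a signal of 1 in 2 or more libraries. The model had a mean for each of 3 groups over 6 libraries, without covariates. Adjustment followed Benjamini and Hochberg, and the threshold was 0.05. Recovered reads were tested with edgeR 4.0.16 and DESeq2 1.42.0 as alternatives. The scripts were tested on simulated data with 200 changed genes. Of these, limma recovered 2 of 40 raised 4-fold and 0 of 40 lowered 4-fold. At 64-fold it recovered 24 of 27 raised and 4 of 30 lowered, and edgeR 25 and 9. A gene that was not called may therefore still differ, most of all a lowered gene. Named genes were the receptors and ligands, the edgeR calls, the 12 largest differences in each direction, the 4 members of each list with the smallest p and the 4 with the highest signal, and the ependymin and surfactant families. The groups, lists and tests were chosen with earlier results of these data known. List medians are descriptions with no test. The level-matched median and the repeats of edgeR were added after the values were seen. RefSeq's GRCz12tu gene table gave names and gene order, and 40 neighbours of csf1ra were matched. Fold bounds take 3 reads over a group as the floor and cover counting error only, since amplified reads without molecular identifiers are not independent molecules.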

Additional observations from a re-analysis of the deposited data

How the results depend on the processing

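The test called 0 genes in the reported fit and also with a pseudocount of 0.25, with no filter on low signal, without robust estimation and without any of the 4 libraries in turn (0 to 0). It called 3 genes with a pseudocount of 4 and 3 by voom on the recovered reads, in both cases the genes that fell. It called 13 among genes with at least 50 reads in 2 libraries, 7 on total reads (4 higher, 3 lower), 5 on median-ratio scaling (2 higher, 3 lower) and 19 with only the 4 libraries compared. On the recovered reads edgeR called 8 genes, DESeq2 239 (172 higher, 67 lower), and edgeR with only the 4 libraries 7; edgeR without each library in turn called 3 to 14. All 8 edgeR genes were among the DESeq2 calls and the 13. Whether title numbers pair the samples was not settled. Same-numbered csf1ra-/- and control libraries correlated at 0.006 across genes in their deviations from the group means. Such a value from 2 libraries per group cannot exclude a shared batch. The fit with the replicate block called 11 genes (8 higher, 3 lower). The ribosomal median ran from 0.67 to 1.82 and the respiratory chain median from 0.12 to 1.38 with a library left out. Leaving out a library turned the direction of il34 (-1.41 to 1.04, reported as -0.19), csf1b (-0.51 to 0.80, reported as 0.15) and csf1rb (-0.50 to 0.37, reported as -0.06), none of which was called; the cause was not tested. Total-read scaling moved the median of all genes to -0.45 and median-ratio scaling to -0.16. Depth limits the low-signal genes most, since 1 read was worth 0.117 and 0.157 units in csf1ra-/- and 0.136 and 0.123 in control.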
